A study of Mus musculus with 4 samples.

Results

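The genes that load and build the MCM helicase at replication origins were examined in the livers of mice that make the oncoproteins of the SV40 virus. They were taken as all probe sets of the array whose platform annotation gives 1 gene symbol, that symbol being Mcm2, Mcm3, Mcm4, Mcm5, Mcm6, Mcm7, Mcm10, Cdc6, Cdt1 or Gmnn. These 10 genes, of 8251 genes so named on the array, are read by 13 of its 12422 probe sets that are not controls. Total liver RNA was hybridised to Affymetrix MG_U74Av2 arrays, 1 array for each of 4 samples. The PEPCK-TAg group has 2 arrays, from transgenic mice carrying a transgene for the SV40 oncoproteins, large T and small t, and the wild-type group has 2 arrays, from mice without the transgene. All mice were male B6SJL hybrids of 50 to 66 days and had eaten a chow of 65% protein and 10% carbohydrate for 4 weeks since weaning. The transgene is driven by the promoter of the gene of PEPCK, an enzyme of glucose synthesis made in hepatocytes, and a diet rich in protein raises the activity of that promoter. The series describes the arrays of a group as duplicates and does not state whether they come from separate animals, so the p-values measure the spread between these arrays, which may be technical.

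Replication origins are licensed when the origin recognition complex, with Cdc6 and Cdt1, loads the MCM ring of the subunits Mcm2, Mcm3, Mcm4, Mcm5, Mcm6 and Mcm7 onto DNA before S phase. The ring is later activated as the helicase of the replication fork, a step in which Mcm10 takes part, and geminin, the product of Gmnn, binds Cdt1 and prevents a second round of loading. Most hepatocytes of the adult liver are out of the cell cycle and hold little of these proteins. Many of these genes are textbook targets of the E2F transcription factors, which the pocket proteins of the RB family hold in check and which large T releases by binding the pocket proteins.

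The promoters are shown first because most of the members with a promoter sequence at hand share a feature in it. The rule that picked the genes did not use this feature. However, the motif was chosen after the data were seen, and many of these genes were already known as E2F targets. RefSeq windows from 250 bases before to 50 bases after the annotated start (build GRCm38.p6) were present for 8 of the 10 genes, with none for Mcm4 and Gmnn. They were searched on both strands for the E2F consensus, spelled as TTTCCCGC, TTTGGCGC, TTTCGCGC or TTTGCCGC. At least 1 match stood in the windows of 6 of the 8 genes, Mcm3, Mcm5, Mcm6, Mcm7, Cdc6 and Cdt1, against 2.6% of the 27025 genes with a window and 2.26% of the 32851 windows. Matches can overlap one another, as they do in Mcm5 and Mcm6. In the stretches below the matches are in capitals and each sequence runs 5′ to 3′ on the strand of its gene. The 4 longer stretches lie upstream of the start, and the 2 short ones, of 30 bases, lie just downstream of it.
Mcm5: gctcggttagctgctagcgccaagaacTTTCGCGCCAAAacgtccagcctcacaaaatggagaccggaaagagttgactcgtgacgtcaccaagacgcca
Mcm6: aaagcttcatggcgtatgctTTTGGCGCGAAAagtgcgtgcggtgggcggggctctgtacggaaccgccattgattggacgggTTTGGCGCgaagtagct
Mcm7: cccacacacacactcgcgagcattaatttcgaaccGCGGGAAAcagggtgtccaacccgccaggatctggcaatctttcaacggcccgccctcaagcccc
Cdc6: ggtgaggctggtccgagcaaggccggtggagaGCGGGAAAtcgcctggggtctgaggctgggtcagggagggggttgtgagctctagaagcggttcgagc
Mcm3: tgGCGGGAAAacttgggaagtTTTGGCGCc
Cdt1: ccgcgggaactaccttTTTGGCGCcatggc

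The Mcm5 stretch is chr8:75109329-75109428 on the plus strand and holds 2 matches that overlap in opposite directions. The Mcm6 stretch is chr1:128359736-128359835 on the minus strand, with 3 matches, of which a pair overlaps and the other lies nearer the start. The Mcm7 stretch is chr5:138171984-138172083 on the minus strand. It holds 1 match, and a further match of this window lies 17 to 24 bases downstream of the start. A second Mcm7 window, from another annotated start, held none. The Cdc6 stretch is chr11:98907981-98908080 on the plus strand, with 1 match. The Mcm3 stretch is chr1:20820266-20820295 on the minus strand, with 2 matches, and the Cdt1 stretch is chr8:122568031-122568060 on the plus strand, with 1. The windows of Mcm2 and Mcm10 do not contain these letters, which says nothing of whether E2F factors act there. The CCAAT box, searched in the same way as CCAAT, was in the windows of 6 of the 8 genes too, where 41.1% of all genes have it. Each match describes letters and was not tested as a binding site.

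**Figure D1:**
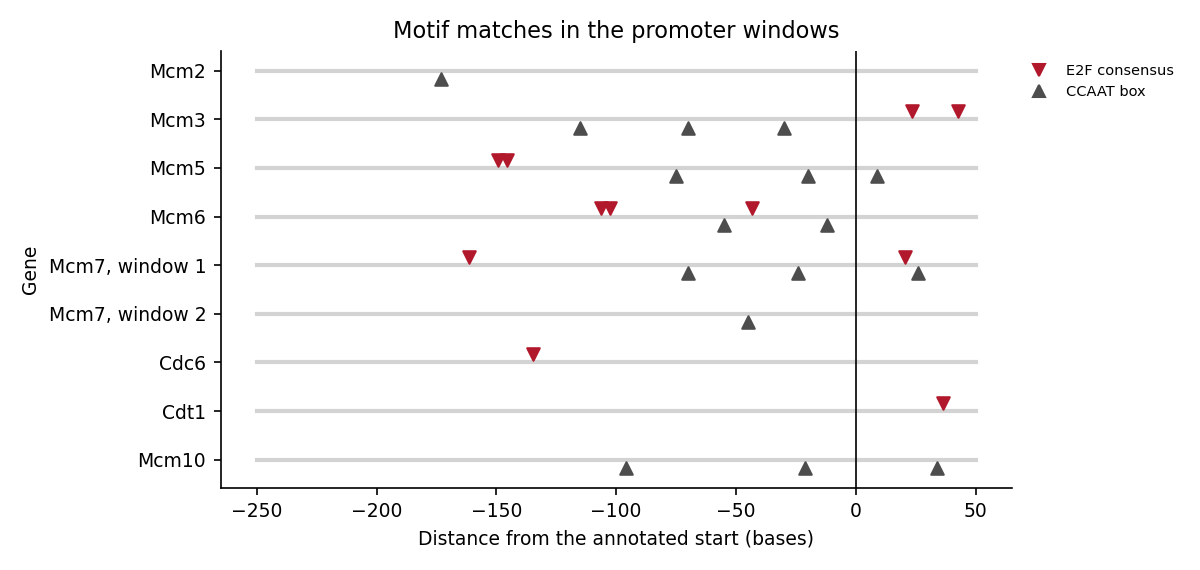
Positions of the E2F consensus (red, above each line) and the CCAAT box (grey, below each line) in the promoter windows of 8 genes, as distance in bases from the annotated start (vertical line), with both windows of Mcm7. The E2F consensus appears in 6 genes and in neither Mcm2 nor Mcm10.

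Of the 10 origin licensing genes, 8 rose in PEPCK-TAg liver, by 5.70-fold to 23.5-fold. Of the 13 probe sets, 11 passed the filter on dim signals (at least 2 of the 4 arrays above a signal of 41.3), and 10 of these, from 8 genes, were called higher at a limma adjusted p of 0.05. None was called lower. Over all 7877 probe sets tested, 9.1% were called higher and 3.4% lower. By size alone, 10 of the 11 were at least 2-fold higher with no overlap between the groups, against 14.7% of all probe sets tested, and none was lower by that measure, against 5.87%. The median log2 difference of the 11 was 3.08, against 0.051 for all probe sets tested. All 11 had both PEPCK-TAg arrays above the filter level. In 8 of the 11 both wild-type arrays were above it too, and 7 of those 8 were called higher. The other 3, the dimmer Cdt1 probe set, a Mcm3 probe set and the Mcm4 probe set, had 1 wild-type array above 41.3. Whether the calls held without 1 of the PEPCK-TAg arrays depended on which probe sets were tested. With the same probe sets tested, none of the 10 passed without PEPCK-TAg replicate 1 (adjusted p 0.0809 to 0.176) or without PEPCK-TAg replicate 2 (0.0998 to 0.154), although all 10 had an unadjusted limma p under 0.05 and none lost its direction. With the filter applied anew to the 3 remaining arrays, all 10 passed in both cases (adjusted p 0.011 to 0.0432). None passed with the fluidics station as a block (adjusted p 0.129 to 0.153), where 10 had an unadjusted p under 0.05, and 5 passed with no filter.

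**Figure D2:**
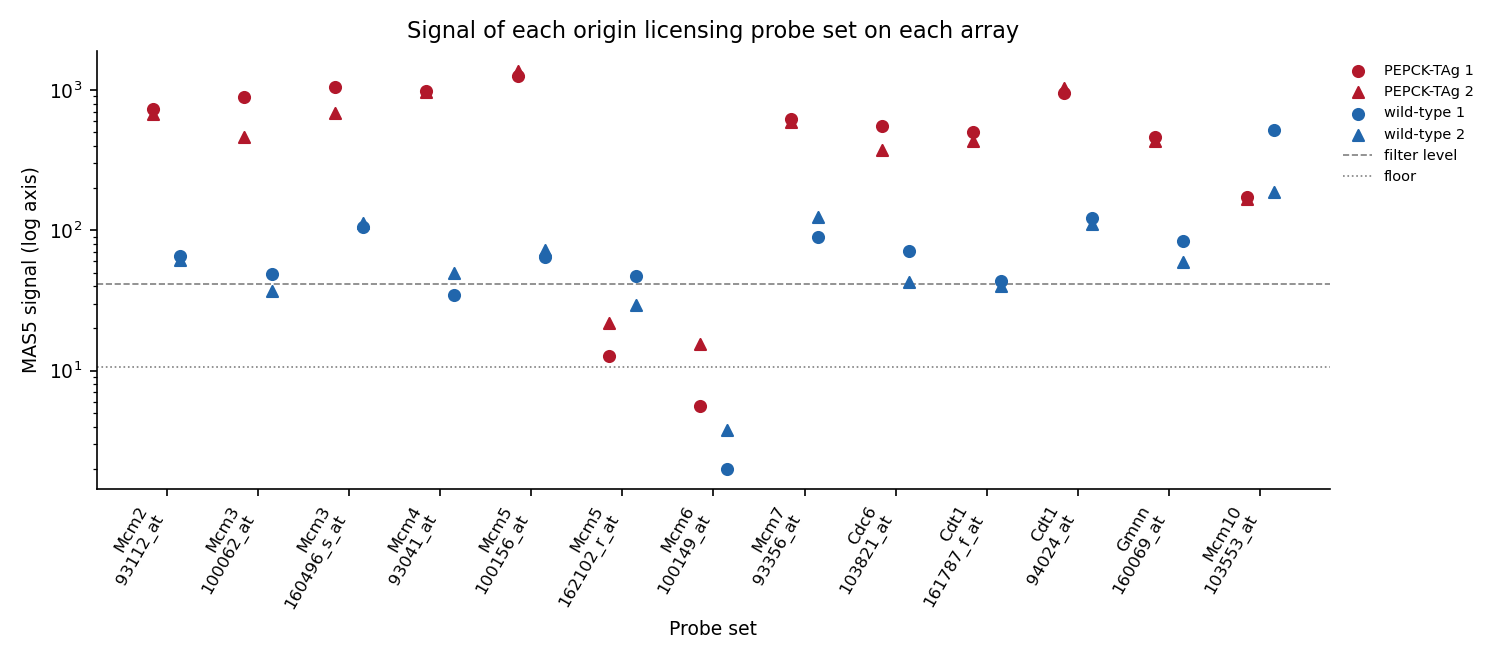
MAS5 signal (log axis) of each of the 13 probe sets on each array, PEPCK-TAg arrays in red and wild-type arrays in blue, with the filter level of 41.3 (dashed) and the floor of 10.6 (dotted). For 10 probe sets the PEPCK-TAg arrays lie between 375.0 and 1372.0 and the wild-type arrays between 34.6 and 123.9.

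Among the subunits of the MCM ring, Mcm4 and Mcm5 differed most. Mcm4 (93041_at) read 978.2 and 971.8 on the PEPCK-TAg arrays, against 34.6 and 49.7 on the wild-type arrays. The PEPCK-TAg arrays were nearly equal and far above both wild-type arrays. Mcm4 rose 23.5-fold (log2 difference 4.55 ± 0.29 SE, 95% interval 3.86 to 5.25, limma adjusted p = 0.00069). Each group had n = 2 arrays throughout. It ranked 35 from the highest difference among all probe sets tested.

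Mcm5 (100156_at) read 1266.6 and 1372.0 on the PEPCK-TAg arrays, against 64.8 and 72.0 on the wild-type arrays. The spread within each group was small beside the gap between them. Its rise was 19.3-fold (4.27 ± 0.24 SE, limma adjusted p = 0.000548), the smallest adjusted p of the 11. A further Mcm5 probe set (162102_r_at) did not share it. This set, whose suffix r marks probes that missed some of the design rules, read lower on the PEPCK-TAg arrays, 12.7 and 21.9, against 47.6 and 29.6 on the wild-type arrays. Only 1 of those values passed 41.3, so it was not tested.

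Mcm2 (93112_at) read 731.3 and 672.8 on the PEPCK-TAg arrays, against 65.8 and 61.0 on the wild-type arrays. The groups were well apart and the replicates close. Mcm2 rose 11.1-fold (3.47 ± 0.25 SE, 95% interval 2.86 to 4.08, limma adjusted p = 0.00106).

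Mcm3 was read by 2 probe sets, and both rose. The first (100062_at) gave 889.6 and 459.4 on the PEPCK-TAg arrays, against 49.0 and 37.1 on the wild-type arrays, a rise of 14.99-fold (3.91 ± 0.39 SE, limma adjusted p = 0.00228). The other (160496_s_at), whose suffix s marks probes that related transcripts may share, gave 1053.7 and 686.6 on the PEPCK-TAg arrays, against 105.7 and 112.1 on the wild-type arrays. It rose 7.81-fold (2.97 ± 0.29 SE, limma adjusted p = 0.00228). In both, PEPCK-TAg replicate 1 was the higher array, and the groups did not overlap.

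Mcm7 (93356_at) read 617.0 and 586.8 on the PEPCK-TAg arrays, against 90.0 and 123.9 on the wild-type arrays. It had the smallest rise of the called subunits, 5.70-fold (2.51 ± 0.28 SE, 95% interval 1.85 to 3.17, limma adjusted p = 0.00313). This interval ends below those of Mcm4 and Mcm5 begin, and the difference between subunits was not tested. Mcm6 was not measurable with its probe set (100149_at). Its values were 5.6 and 15.6 in PEPCK-TAg liver against 2.0 and 3.8 in wild-type liver, all under the filter level and 3 of the 4 at or under the floor of 10.6, so no fold is given and nothing is shown about Mcm6 itself.

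**Figure D3:**
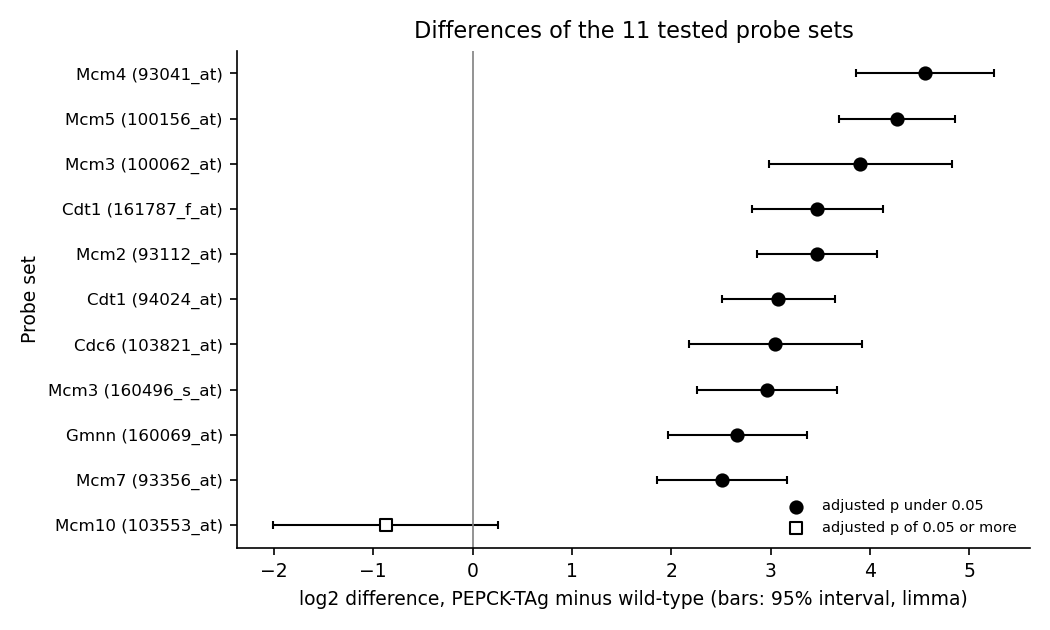
Log2 difference, PEPCK-TAg minus wild-type, of the 11 tested probe sets with limma's 95% interval (bars), filled where the adjusted p is under 0.05. The 10 filled points lie between 2.51 and 4.55, and the open point, Mcm10, has an interval that spans 0.

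Both loading factors rose. Cdc6 (103821_at), the ATPase that joins the origin recognition complex and recruits the ring, read 555.9 and 375.0 on the PEPCK-TAg arrays, against 71.2 and 42.8 on the wild-type arrays. Cdc6 rose 8.27-fold (log2 difference 3.05 ± 0.37 SE, limma adjusted p = 0.00422). Its arrays differed more within the groups than those of Mcm2, Mcm5 or Cdt1, and the groups did not overlap.

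Cdt1, which brings the ring to the origin, was read by 2 probe sets. The first (94024_at) gave 953.2 and 1025.6 on the PEPCK-TAg arrays, against 122.2 and 111.8 on the wild-type arrays, an 8.46-fold rise (3.08 ± 0.24 SE, limma adjusted p = 0.00122). The other (161787_f_at), whose suffix f marks probes shared within a gene family, gave 497.6 and 432.4 on the PEPCK-TAg arrays, against 43.7 and 40 on the wild-type arrays. It rose 11.1-fold (3.47 ± 0.28 SE, limma adjusted p = 0.00126). The 2 probe sets had overlapping 95% intervals, 2.51 to 3.65 and 2.81 to 4.13.

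Gmnn (160069_at), the inhibitor of Cdt1, rose beside the factor it inhibits. It read 464.8 and 432.2 on the PEPCK-TAg arrays, against 84.3 and 59.3 on the wild-type arrays, a rise of 6.34-fold (2.66 ± 0.29 SE, 95% interval 1.96 to 3.37, limma adjusted p = 0.00316). These are RNA levels, and both proteins are also controlled by degradation in the cell cycle, which arrays do not see.

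Mcm10 (103553_at) did not rise. It read 172.8 and 168.1 on the PEPCK-TAg arrays, against 519.0 and 188.0 on the wild-type arrays, and its log2 difference was -0.87 ± 0.47 SE (95% interval -2.01 to 0.26, limma adjusted p = 0.265). The PEPCK-TAg arrays agreed closely, whereas the wild-type arrays differed widely from each other. The size of the difference rests on wild-type replicate 1. Without it the difference was -0.14 (limma adjusted p = 0.812), and without wild-type replicate 2 it was -1.61, which passed the threshold (limma adjusted p = 0.00832). Over all alternatives its adjusted p ranged between 0.00249 and 0.821. The 95% interval of Mcm10 lies wholly below that of each of the 10 called probe sets, and the difference between them was not tested.

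In the pair of arrays scanned on the same day, PEPCK-TAg replicate 1 and wild-type replicate 1, the 10 called probe sets differed by 2.46 to 4.82 on the log2 scale. The median over the 11 tested was 3.32 in that pair. Between replicates, PEPCK-TAg replicate 2 minus PEPCK-TAg replicate 1 ran between -0.95 (Mcm3) and 0.12 (Mcm5) on the log2 scale over the 11, with a median of -0.11. Wild-type replicate 2 minus wild-type replicate 1 ran between -1.47 (Mcm10) and 0.52 (Mcm4), with a median of -0.13. Both PEPCK-TAg arrays came from 1 chip lot and each wild-type array from a lot of its own, so lot and group cannot be told apart.

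Other genes of licensing and origin firing rose as well, in part. Of 32 such genes listed by role, 19 had a probe set of their own on the array and 15 were tested. Of these, 8 were called higher and none lower, with a median log2 difference of 1.66. Among them Orc1, Cdc7 and Dtl passed the filter through the PEPCK-TAg arrays alone, so that they had to differ, and of the 12 that passed it on the wild-type arrays 5 were called higher. Over the brightest probe set of each of the 5954 genes tested, 9.52% were called higher and 3.29% lower. The count fell to 4 of 12 tested when either PEPCK-TAg array was left out and the filter applied anew, and to 0 of 15 with the same genes tested, where 8 (without PEPCK-TAg replicate 1) and 10 (without PEPCK-TAg replicate 2) had an unadjusted limma p under 0.05.

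In the origin recognition complex, 2 of 4 tested subunits rose. Orc6 read 318.7 and 331.9 on the PEPCK-TAg arrays, against 61.0 and 67.2 on the wild-type arrays (5.08-fold, limma adjusted p = 0.00364). Orc1, the subunit whose level is known to follow the cell cycle, read 91.9 and 78.3 on the PEPCK-TAg arrays, against 3.3 and 23.5 on the wild-type arrays. With 1 wild-type array at the floor its rise is a bound of at least 5.38-fold (limma adjusted p = 0.0278), and its call was lost with a floor at the 10th percentile. Orc4 and Orc5, with log2 differences of 0.58 and 0.62, did not pass (adjusted p = 0.262 and 0.195).

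Of the kinases and cyclins that fire origins, 3 of 4 tested rose. Cdc7, the kinase that phosphorylates the loaded ring, read 93.7 and 76.2 on the PEPCK-TAg arrays, against 10.7 and 4.3 on the wild-type arrays, at least 7.93-fold higher (limma adjusted p = 0.00774). Ccna2, cyclin A2 of S phase, rose 4.87-fold (limma adjusted p = 0.00247) and its partner Cdk2 rose 3.09-fold (limma adjusted p = 0.0212). Ccne1, cyclin E1, was 2.01-fold higher and did not pass (adjusted p = 0.0552).

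Of 3 tested genes of helicase activation and replisome assembly, 2 rose. Topbp1, a scaffold needed for activating the helicase, rose 7.91-fold, and Wdhd1, which ties the helicase to a polymerase, rose 7.52-fold (limma adjusted p = 0.00301 for both). Cdc45, which joins the ring in the active helicase, was 3.15-fold higher, at 250.2 and 164.1 in PEPCK-TAg liver against 45.1 and 91.4 in wild-type liver, and did not pass (adjusted p = 0.0532).

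Among 3 tested genes that remove Cdt1, the largest difference of the list was that of Dtl, the substrate receptor that targets Cdt1 for degradation in S phase. Dtl read 324.5 and 306.9 on the PEPCK-TAg arrays, against 6.3 and 4.1 on the wild-type arrays. Both wild-type arrays were under the floor, so the rise is at least 29.8-fold (limma adjusted p = 0.000927). The other subunits of its ubiquitin ligase, Cul4a and Ddb1, gave log2 differences of 0.20 and -0.28 and did not pass (adjusted p = 0.584 and 0.422), and a further Ddb1 probe set gave 0.061. Mcm3ap, the only tested gene of the MCM-binding group, gave 0.28 (adjusted p = 0.601).

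**Figure D4:**
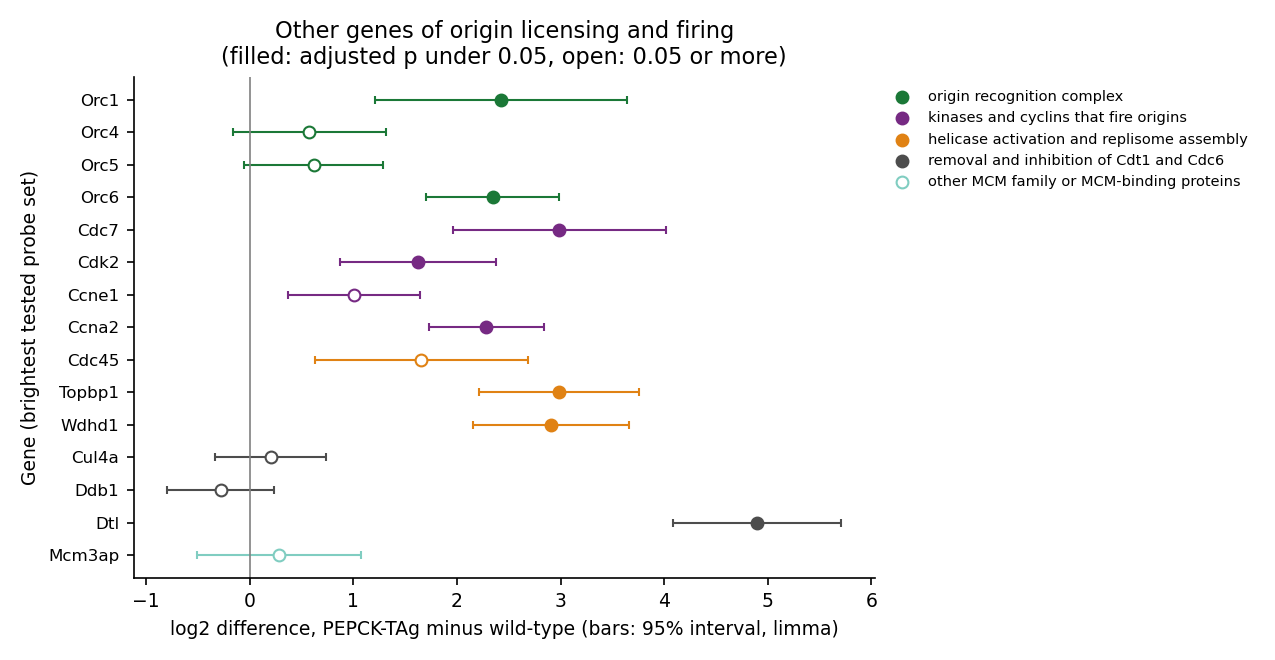
Log2 difference, PEPCK-TAg minus wild-type, of the 15 tested genes of licensing and origin firing outside the 10 members, coloured by role, with limma's 95% interval (bars) and filled where the adjusted p is under 0.05. The 8 filled genes include Dtl at 4.90, and Cul4a, Ddb1 and Mcm3ap lie near 0.

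Prkdc, the gene next to Mcm4 on chromosome 16 in the RefSeq table and the catalytic subunit of a DNA repair kinase, read 152.3 and 124.4 on the PEPCK-TAg arrays, against 55.1 and 58.3 on the wild-type arrays. Its rise of 2.43-fold passed narrowly (limma adjusted p = 0.0432). The call was lost under quantile normalization (adjusted p = 0.0846) and without any 1 of the 4 arrays with the same probe sets tested (0.0599 to 0.263), so its direction held and its call did not.

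The genes whose values lay closest to the licensing genes over the 4 arrays were Cdca7, Hells, Aspm, Smc2 and Ccnb2. Closeness was the Euclidean distance between a probe set's log2 signals, centred on their mean, and the median centred profile of the 11 tested probe sets. It was 0.175 for Cdca7, 0.221 for Hells, 0.242 for Aspm, 0.258 for Smc2 and 0.269 for Ccnb2. Among the members it was 0.219 to 1.40 for the 10 called probe sets and 4.26 for Mcm10. Cdca7 read 448.6 and 419.1 on the PEPCK-TAg arrays, against 49.3 and 38.3 on the wild-type arrays. Hells and Aspm were under the floor on both wild-type arrays, so the floor shaped their profiles. Over 4 arrays in 2 groups such a distance mainly finds probe sets with a like difference between the groups.

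Over the genes tested on the arrays that have a promoter window, the E2F consensus stood in 11.8% of the 490 called higher, in 3.37% of the 178 called lower and in 4.25% of the 4162 not called. The tested members with a window are counted among these genes, and the motif was chosen after the calls were seen. Among the members, Mcm6 has 3 matches and no usable signal, while Mcm2 has none and rose 11.1-fold.

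Most of the defining genes of hepatocytes were among the bright signals in both groups. Ass1 was dimmer, at 325.6 and 377.2 on the PEPCK-TAg arrays, against 470.5 and 476.5 on the wild-type arrays. Alb, the gene of serum albumin, had signals of 9379.4 and 13117.0 in PEPCK-TAg liver and of 15363.7 and 17285.8 in wild-type liver. The summed signal of 8 hepatocyte markers was 43421.8 and 55308.2 on the PEPCK-TAg arrays, against 79056.2 and 83830.3 on the wild-type arrays. Of the 8, 3 were called lower (Ttr, Tat and Cyp2e1), against 3.29% of all genes tested. Fgb was higher without being called (log2 difference 0.515, limma adjusted p = 0.185). The rest, Alb, Apoa1, Cps1 and Ass1, read lower and were not called (limma adjusted p 0.133 to 0.27). Markers of erythroid and of granulocyte and myeloid cells differed between the groups as well, most of them in the direction of the licensing genes. Precursors of these cells divide and also hold licensing factors, but the lists include markers of mature cells too. Over all genes tested 9.52% were called higher, the share to set beside each count of risen markers here. Of 8 erythroid markers tested 6 rose, of which Epb42 and Hemgn passed the filter through the PEPCK-TAg arrays alone. Alas2 and Tfrc were not called, with log2 differences of -0.565 and 0.043 (limma adjusted p = 0.323 and 0.955) and overlapping groups. The summed signal of the erythroid markers was 10520.5 and 14463.3 on the PEPCK-TAg arrays, against 3907.7 and 4246.8 on the wild-type arrays. Of 11 granulocyte and myeloid markers tested 8 rose. Of these, 5 (Mpo, Ngp, S100a8, S100a9 and Prtn3) passed the filter through the PEPCK-TAg arrays alone, and 3 of the 6 that passed it on the wild-type arrays rose. The sum was 6666.3 and 10697.7 on the PEPCK-TAg arrays, against 725.1 and 735.7 on the wild-type arrays, with Itgam at or under the floor on all 4. Their part in the rise of the licensing genes was not tested. The summed lymphocyte markers gave 334.6 and 289.0 on the PEPCK-TAg arrays against 770.7 and 965.1 on the wild-type arrays, a gap carried by Zap70. Without Zap70 the sums were 291.0 and 231.0 on the PEPCK-TAg arrays against 205.9 and 241.4 on the wild-type arrays. Of 5 tested Zap70 fell, Ltb and Ccl5 rose after passing the filter through the PEPCK-TAg arrays alone, and Cd3g and Cd8a were at or under the floor on all arrays. Of 6 endothelial markers tested 1 rose (Icam2, let through the filter by the PEPCK-TAg arrays alone), with sums of 726.6 and 872.3 on the PEPCK-TAg arrays against 668.5 and 552.9 on the wild-type arrays. Of 4 stellate and fibroblast markers tested 1 rose, with sums of 2007.1 and 2101.3 on the PEPCK-TAg arrays against 2648.3 and 2460.5 on the wild-type arrays. The 1 biliary marker tested, Cldn7, rose and was let through by the PEPCK-TAg arrays alone, with sums of 59.0 and 101.4 on the PEPCK-TAg arrays against 45.0 and 26.2 on the wild-type arrays and Krt19 at or under the floor on all 4. In whole liver RNA, more cells that hold a transcript and more transcript per cell cannot be told apart.

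**Figure D5:**
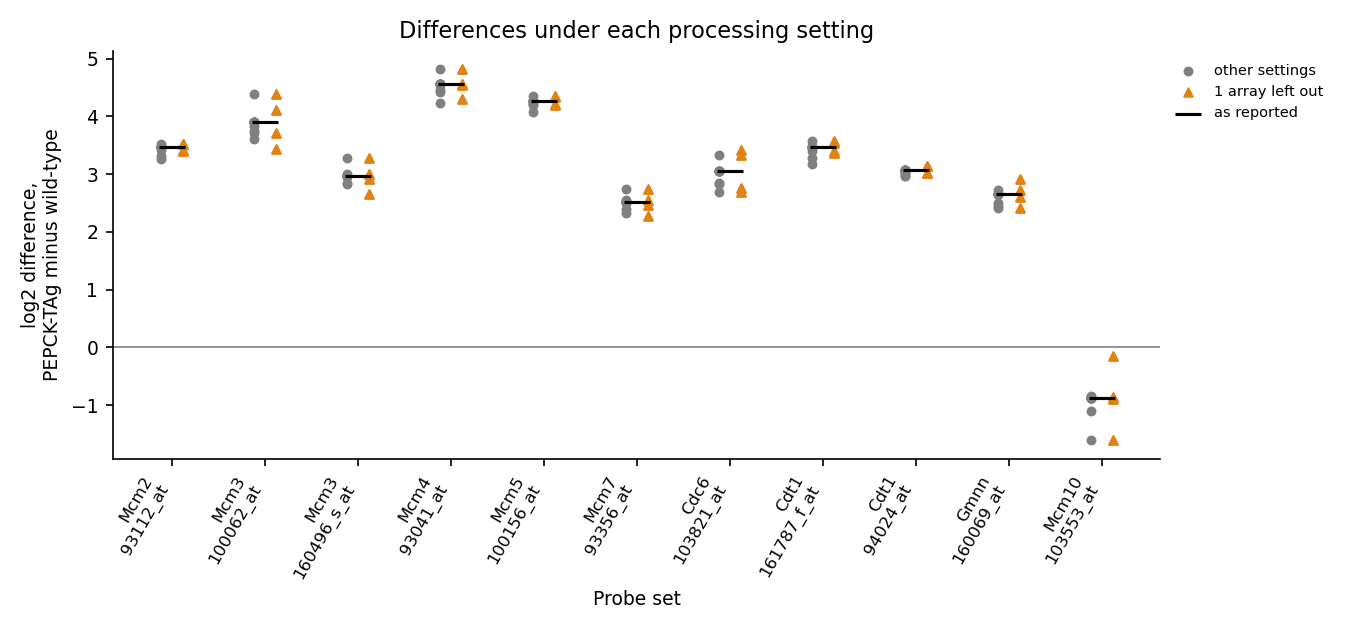
Log2 difference, PEPCK-TAg minus wild-type, of the 11 tested probe sets as reported (black bar), with 1 array left out (orange) and under the other settings (grey). The 10 called probe sets lie above 2.2 throughout, and Mcm10 lies between -1.61 and -0.14.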

How the data were processed

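The deposited values are linear MAS5 intensities, 1 for each probe set on an array, per the submitters' processing notes, which name no version. Their 2% trimmed mean was 250.1 to 250.2 on all 4 arrays, so the deposited intensities were already scaled. Here the 12422 probe sets that are not controls were rescaled linearly to a common trimmed mean, floored at the 20th percentile (10.6) and log2 transformed. Probe sets with at least 2 arrays above the 40th percentile (41.3) were tested with limma 3.58.1 in R 4.3.3 (lmFit, eBayes with trend, two-sided, 6.6 degrees of freedom), with Benjamini-Hochberg adjustment over all 7877. With 2 arrays a group, the smallest exact permutation p is 0.333. The platform table names 10833 probe sets by 1 symbol, and 10817 of these matched RefSeq, which changed 0 symbols. Folds against floored arrays are lower bounds. The number of arrays limits the precision.

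All probe sets of the 10 genes are reported. Of the other licensing genes up to 8 called ones with the smallest p are named, and of those not called some were named after their values were seen. The 5 genes of closest profile and Prkdc were named by rule. Markers were listed for 7 cell types. Members and lists were chosen with earlier results of these data known, and the E2F and CCAAT motifs and printed stretches were chosen after seeing the data. Alternatives were quantile normalization, other floors (10th and 40th percentiles), a pseudocount, no filter or one at the 60th percentile, leaving out each array, 3 blocks (replicate number, fluidics station and scanner type), no trend and other thresholds.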

Additional observations from a re-analysis of the deposited data

How the results depend on the processing

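The 10 called probe sets kept their direction in all 20 alternatives, with log2 differences between 2.28 and 4.82, and all 10 passed in 16 of them. The number called fell to 5 with no filter and to 0 with the fluidics station as a block, and ranged from 0 to 10 with 1 array left out. The median over the 11 tested probe sets, Mcm10 included, was 3.33 with the fluidics station as a block and 3.02 to 3.42 with 1 array left out. The 8 called genes of licensing and firing outside the members became 4 with no filter, 0 with the station as a block and 0 to 9 with 1 array left out, or 4 without either PEPCK-TAg array and the filter applied anew. The 985 calls over all probe sets became 165 with no filter, 0 with the station as a block (1432 at an unadjusted p under 0.05), 1621 at an adjusted p of 0.1, and 0 to 1449 with 1 array left out. With the filter applied anew they became 167 without PEPCK-TAg replicate 1, 145 without PEPCK-TAg replicate 2 and 1696 without wild-type replicate 1. The station block takes PEPCK-TAg replicate 2 out of the comparison, since that array alone ran on the other station. For the other alternatives, no filter included, the cause was not tested. A further 14 named genes, all of them called as reported, were followed over the alternatives. They gave 206 values that kept their side of the threshold and 59 that did not, and none changed sign. Licensing genes that were named but not called, such as Ccne1 and Cdc45, are not among the 14. Mcm10 passed the threshold in 3 alternatives, all of which leave out wild-type replicate 2 or, with scanner type as a block, set it apart, and its difference was negative in all 20.

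With the replicate number of the labels as a block, 1873 probe sets were called, and the same 10 probe sets passed, while the median over the 11 tested was 3.08. Deviations of same-numbered arrays from their group means correlated at r = 0.253 across probe sets. With 2 pairs, and labels that do not say the numbers pair the arrays, they were treated as unpaired; the arrays numbered 1 share a scan day.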
